A study of Arabidopsis thaliana with 9 samples.

Results

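Line 409 of Arabidopsis thaliana, a T-DNA insertion mutant, was compared with its control line C2S1 on Affymetrix ATH1 arrays, whose short oligonucleotide probes are grouped into probe sets. The comparison used the 3 arrays of line 409 and the 3 arrays of C2S1, which are 6 of the 9 arrays of the series, and all 22746 probe sets that are not Affymetrix controls, of 22810 on the array. Arrays were chosen by the line named in their labels. RNA came from whole plants at growth stage 1.04, grown for 17 days at 21 C under 16 h of light and 8 h of dark with 25 seeds per plate. The labels call line 409 a T-DNA knock out mutation, and C2S1 is named a wild-type control in its titles while its genetic variation label also reads knock out mutation. The labels name no disrupted gene, so the insertion could not be checked on the arrays. Whether plants of 1 line were raised as separate cultures is not stated in the labels. The p-values therefore cover the spread among these samples alone, and that spread may be technical.

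The series title speaks of epigenetic mutants. In Arabidopsis, DNA methylation, histone modification and small RNAs keep transposons and some genes silent, and loss of these marks can release transcripts that are normally off. A T-DNA insertion can disturb a single gene, alter its neighbours, or leave most transcripts as they were. The question was which transcripts differ between line 409 and its control.

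All arrays had a 2% trimmed mean of 100 as deposited, so they had been brought to a common level, and the number of arrays limits the precision. Across all probe sets, on the log2 scale, the arrays of line 409 correlated with each other at r = 0.964 to 0.972, those of the control at r = 0.979 to 0.982, and arrays of different lines at r = 0.968 to 0.975. Probe sets are not independent replicates, but the arrays of line 409 were thus about as far from each other as from the control. As measures of RNA integrity, ratios of 3' to 5' probe sets were read for GAPDH, actin and ubiquitin. The GAPDH ratio lay at 1.63 to 1.87 in line 409, against 1.79 to 1.97 in the control (two-sided exact permutation p = 0.2). Actin was far higher, at 6.08 to 10.71 in line 409, against 8.97 to 11.96 in the control (two-sided exact permutation p = 0.3). Ubiquitin had 1.37 to 2.17 in line 409, against 1.405 to 1.715 in the control (two-sided exact permutation p = 0.9). The GAPDH ratio alone thus does not show that the RNA was intact. Spike-in controls had a mean log2 signal of 8.56 to 8.82 in line 409, against 8.95 to 9.07 in the control, which did not overlap (two-sided exact permutation p = 0.1, and 3 against 3 arrays can give none smaller). Leaf and root markers were both present: LHCB4.1, LHCB4.2, PSAE-1 and RCA of leaves summed to signals of 17430 to 20405 in line 409, against 16697 to 17508 in the control. PYK10, a root gene, ranged over 2340.4 to 3641 in line 409, overlapping the control at 3004 to 3470.5. EXPA7 of root hairs, the other measured root marker, was dim, at 10.5 to 18.3 in line 409, against 1.48 to 12.6 in the control, and also overlapped, with a log2 change of 0.66 where PYK10 had -0.04. The shoot meristem gene CLV3 was at 3.41 or less on every array, and no marker of flowers or seeds was named in the gene table.

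No probe set passed an adjusted p under 0.05. The test was limma on log2(signal + 5) over all 22746 probe sets, and it called 0 (0%), with a smallest adjusted p of 0.145. An unadjusted limma p under 0.05 was found for 2134 probe sets (9.38%), 1094 higher (4.81%) and 1040 lower (4.57%) in line 409. For 3618 probe sets (15.9%) the values of line 409 did not overlap with those of the control, 1945 higher (8.55%) and 1673 lower (7.36%). Of these, 141 (0.62%) also differed at least 2-fold, 96 higher (0.422%) and 45 lower (0.198%). With quantile normalization the split was 58 higher and 70 lower, and with median centring 87 higher and 45 lower. When dim probe sets were left out beforehand, keeping those that exceeded the 40th percentile of signals on 3 or more arrays, limma called 8 of 13858, 2 higher and 6 lower. These 8 were AT4G33380, AT5G22850, AT5G52070, rpl36 and the probe sets 245276_at, 253922_at, 251861_at and 258618_at, at limma adjusted p = 0.0155 to 0.0366. A probe set could pass this filter through the arrays of 1 group alone. For bulk tissue, fewer cells of a type and less RNA per cell cannot be told apart.

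**Figure D1:**
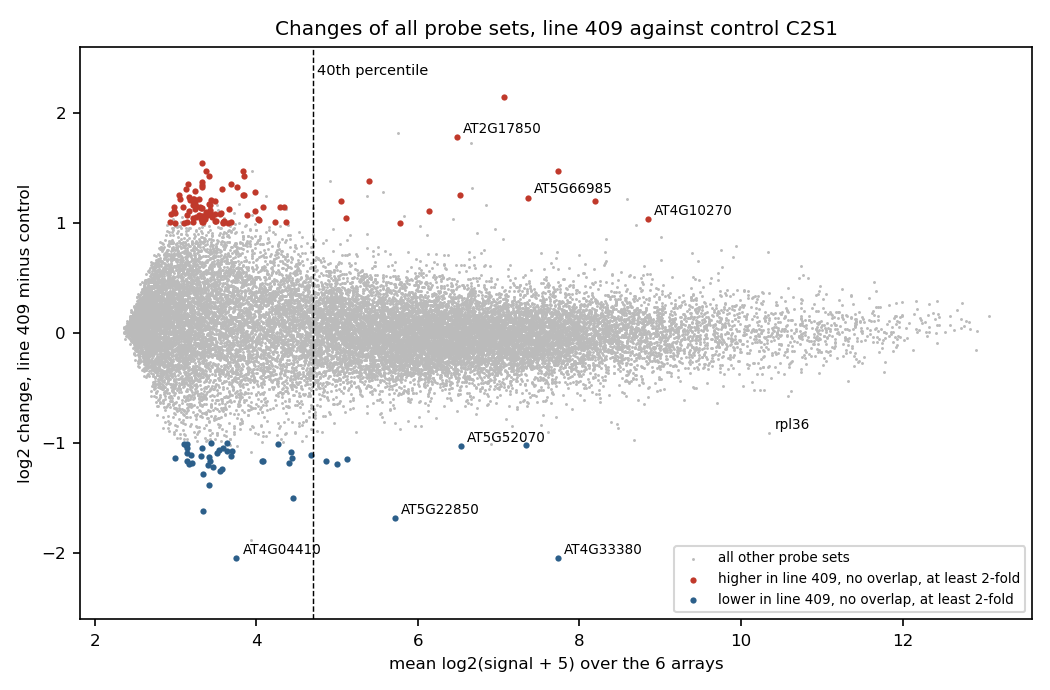
Log2 change (line 409 minus control, vertical axis) against the mean log2(signal + 5) over the 6 arrays (horizontal axis), one point per probe set. Coloured points had no overlap between the groups and a difference of at least 2-fold, 96 higher and 45 lower, and most of them lie left of the dashed 40th percentile, among dim probe sets.

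The first 6 genes described here were higher in line 409 and are known to respond to low oxygen. They were picked by hand, after their values had been seen, from genes already chosen for having no overlap. Plants short of oxygen switch from respiration to fermentation and make a set of transcripts, many of unknown function, in nearly every cell type. AT2G17850, which encodes a rhodanese-like protein of that set, had signals of 160.0, 192 and 134 in line 409, against 24.5, 30.2 and 103 in the control. All 3 arrays of line 409 were above the control, but control replicate 3 lay close to them and far above the other control arrays. The log2 change was 1.78 with SE 0.421, 3.43-fold on the log2(signal + 5) scale, at limma adjusted p = 0.336.

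AT5G66985, a gene of unknown function, had 192, 285 and 273 in line 409, against 66.1, 90.06 and 177 in the control, a log2 change of 1.23 at limma adjusted p = 0.341. AT4G10270, of the wound-responsive family, had 651, 723 and 593 in line 409, against 240.3, 227 and 575 in the control, a log2 change of 1.04 at limma adjusted p = 0.398. Again control replicate 3 stood next to line 409, here just under its lowest array. AT3G27220, a kelch-repeat protein, had 132, 188 and 191 in line 409, against 68.6, 72.2 and 122 in the control, a log2 change of 0.95. AT1G33055, another small protein of unknown function, had 415, 467 and 398 in line 409, against 176, 198 and 364 in the control, a log2 change of 0.85. AT4G27450, an abundant transcript related to aluminium-induced proteins, had 1544, 1384 and 991 in line 409, against 669.7, 649.9 and 925 in the control, a log2 change of 0.79. The lack of overlap in these 6 genes was fixed by that choice (8.55% of all probe sets were higher with no overlap).

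On control replicate 3 these 6 genes stood at a median of 71.4% of their line 409 mean, while control replicates 1 and 2 stood at 38.5% and 39.2%. Without control replicate 3 the log2 changes were 2.36 for AT2G17850, 1.61 for AT5G66985, 1.46 for AT4G10270, 1.2 for AT3G27220, 1.17 for AT1G33055 and 0.96 for AT4G27450. Limma then called AT2G17850 and AT4G10270, both with adjusted p = 0.0257, while AT5G66985 had adjusted p = 0.0966 and AT1G33055 adjusted p = 0.0542. Leaving out another control array went the other way. Without control replicate 1 the log2 change of AT2G17850 was 1.42 at limma adjusted p = 0.763 and that of AT4G10270 was 0.84 at 0.808. Without control replicate 2 AT2G17850 had 1.55 at limma adjusted p = 0.802 and AT4G10270 had 0.80 at 0.836. Limma called no probe set in either fit, with smallest adjusted p-values of 0.61 and 0.785, although 1363 and 1343 had an unadjusted p under 0.05. PDC2 is a pyruvate decarboxylase of ethanol fermentation. Of the 11 genes on the low-oxygen list, it was the 1 given as the single gene of a probe set in the gene table. The others were not analysed here, and the array may still carry probe sets for them. PDC2 had 81.8, 112 and 65.7 in line 409, against 40.8, 39.9 and 73.5 in the control, so the groups overlapped at control replicate 3.

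**Figure D2:**
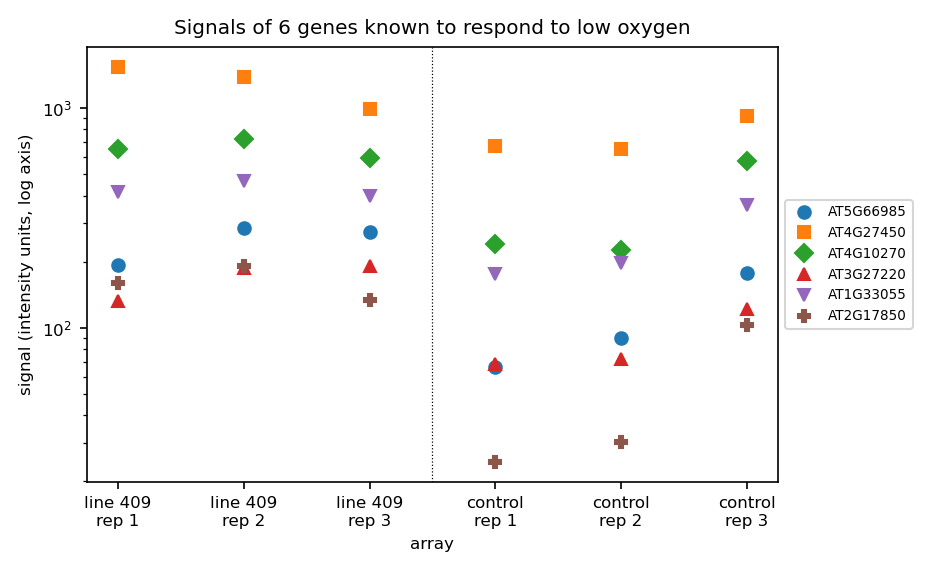
Signal of 6 genes known to respond to low oxygen on each array (log axis), with line 409 to the left of the dotted line and the control to its right. Control replicate 3 lies between the other control arrays and line 409 for each gene, for AT4G10270 at 575 against 593 on the lowest array of line 409.

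Other named genes higher in line 409 had a spread of roles. AT1G73120 had 157, 177 and 188 in line 409, against 80.1, 113 and 91.4 in the control, a log2 change of 0.85 with SE 0.143 and limma adjusted p = 0.316. AT5G62720, an integral membrane protein of the HPP family, had 137, 144 and 144 in line 409, against 71.4, 72.9 and 105 in the control, a log2 change of 0.76 at limma adjusted p = 0.32. AT3G28500, an acidic ribosomal protein of the large subunit, had 73.2, 92.9 and 103 in line 409, against 30.9, 42.8 and 71.1 in the control, a log2 change of 0.89 at limma adjusted p = 0.404. AT1G73120 showed a wide gap between the groups, while in AT3G28500 they nearly met at control replicate 3.

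The remaining named genes of this kind were weaker in signal. AT3G44140 had 32.2, 42.0 and 40.2 in line 409, against 18.0, 15.2 and 19.0 in the control, a log2 change of 0.94. AT1G19025, of the DNA repair metallo-beta-lactamase family, had 26.0, 33.4 and 32.6 in line 409, against 16.7, 13.0 and 14.3 in the control, a log2 change of 0.86. A further probe set of AT1G19025, 259465_at, was dimmer, at 0.47, 10.1 and 6.65 in line 409, against 0.70, 4.05 and 0.95 in the control, and overlapped. AT5G45920, an esterase of the SGNH hydrolase type, had 29.3, 31.3 and 61.0 in line 409, against 18.5, 26.8 and 15.6 in the control, and the highest value was on replicate 3 of line 409. The log2 change of AT5G45920 was 0.81, and 0.50 without that array, at limma adjusted p = 0.542. AT1G65500 and AT3G03020 had log2 changes of 0.82 and 0.77, and ARLA1C, an ARF-like small GTPase, of 0.75. Over the 15 named higher genes the log2 changes were 0.75 to 1.78 and the limma adjusted p-values 0.316 to 0.486, and control replicate 3 was the control array nearest to line 409 for 10 of them. Among all 95 brighter probe sets that were higher at least 1.5-fold with no overlap (0.696%), it was nearest in 53, and replicates 1 and 2 in 22 and 20. Among the 91 that were lower (0.667%), it was nearest in 45, and replicates 1 and 2 in 22 and 24.

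**Figure D3:**
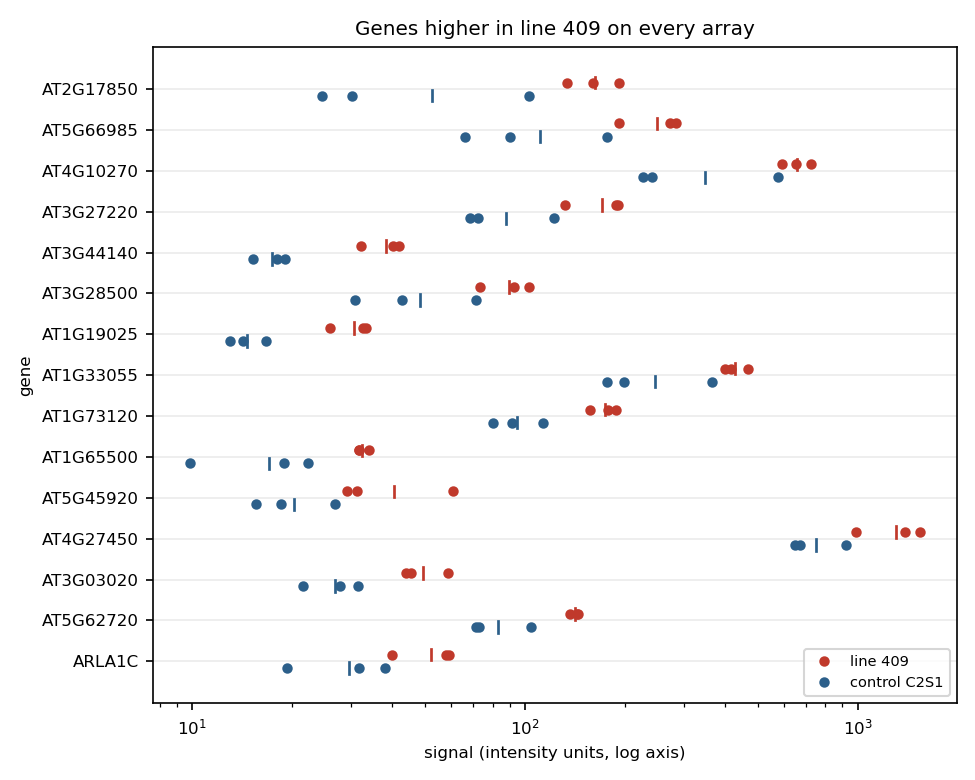
Signals of the 15 named genes that were higher on every line 409 array, one row per gene, with line 409 above the control in each row (log axis, points are arrays, ticks are means). For the 3 genes at the top the highest control point, at 103, 177 and 575, lies apart from the other control points.

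Among genes lower in line 409, AT4G33380 had the largest difference. It had 171, 93.1 and 62.2 in line 409, against 293, 507 and 527 in the control, and the groups did not overlap although both were spread widely. Its log2 change was -2.04 with SE 0.338, 4.12-fold on the log2(signal + 5) scale, at limma adjusted p = 0.312 over all probe sets and 0.0366 without the dim ones. AT5G22850, an aspartyl protease, was tighter, with 30.8, 17.5 and 26.1 in line 409, against 86.3, 92.3 and 88.4 in the control. That is a log2 change of -1.68 with SE 0.202, and limma adjusted p = 0.161 over all probe sets and 0.0155 without the dim ones. The control arrays of AT5G22850 lay close to each other and far above every line 409 array.

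Of the next 4 genes, HIS1-3, SWI3A and LDL2 have roles in chromatin, while AT5G52070 is described here only by its protein domain. All 4 were picked by hand after their values had been seen, from probe sets without overlap. Their lack of overlap was fixed by that choice (8.55% of all probe sets were higher and 7.36% lower with no overlap). The 4 genes do not all go one way and were not drawn from a list. The histone family, read by words in the gene table, had 5 probe sets. Of these, 0 were higher and 2 lower with no overlap, and HIS1-3 was 1 of the 2. AT5G52070, which encodes an agenet-domain protein, had 63.2, 56.3 and 60.2 in line 409, against 142, 139 and 104 in the control. Its log2 change was -1.03 at limma adjusted p = 0.191 over all probe sets and 0.0347 without the dim ones. HIS1-3, a linker histone induced by drought, had 20.2, 12.2 and 16.9 in line 409, against 55.1, 55.8 and 25.5 in the control, a log2 change of -1.19 at limma adjusted p = 0.362. Here control replicate 3 lay near line 409 and below both other control arrays. SWI3A, a subunit of SWI/SNF chromatin remodelling complexes, had 23.8, 33.1 and 43.0 in line 409, against 55.1, 53.3 and 47.8 in the control, a log2 change of -0.60 at limma adjusted p = 0.476. In the other direction, LDL2, a histone demethylase of the LSD1 kind, had 33.8, 26.6 and 29.6 in line 409, against 16.0, 24.2 and 12.2 in the control, a log2 change of 0.67 at limma adjusted p = 0.496.

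The brightest of the named lower genes was rpl36, a ribosomal protein gene of the plastid genome. It had 870.0, 954 and 1009 in line 409, against 1621, 1749 and 1969 in the control, a log2 change of -0.91 with SE 0.111 and limma adjusted p = 0.161 over all probe sets and 0.0155 without the dim ones. The 69 plastid-encoded probe sets had a median log2 change of 0.053, against 0.020 for all probe sets. Of the 69, 9 were higher with no overlap and 3 lower, against 8.55% higher and 7.36% lower of all probe sets, and rpl36 was the 1 that differed at least 1.5-fold with no overlap (3.53% of all probe sets did in either direction). The next lowest, psbN of photosystem II, had 153, 93.9 and 188.5 in line 409, against 325, 220.0 and 188.3 in the control, and overlapped. AT4G21620, a glycine-rich protein, was singled out for its narrow spread, with 350.5, 346 and 355 in line 409, against 502, 587 and 571 in the control, a log2 change of -0.65 at limma adjusted p = 0.191.

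The other named lower genes covered varied roles. AT1G64500, of the glutaredoxin family of redox proteins, had 36.3, 40.04 and 30.8 in line 409, against 77.7, 76.8 and 55.4 in the control, a log2 change of -0.87 at limma adjusted p = 0.323. AT1G15250, a zinc-binding protein of the large ribosomal subunit, had 73.9, 72.3 and 50.8 in line 409, against 123, 105 and 100.0 in the control, a log2 change of -0.71. AT2G31945, of little-known function, had 22.5, 23.8 and 11.4 in line 409, against 42.9, 54.4 and 44.1 in the control, a log2 change of -1.14 at limma adjusted p = 0.336. These 3 had a clear gap between the groups.

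AT4G01460, a bHLH transcription factor, had 38.4, 20.4 and 14.2 in line 409, against 54.8, 42.4 and 43.7 in the control, a log2 change of -0.90, with a narrow gap between the groups. AT1G11270, an F-box protein, had 4.16, 21.4 and 25.3 in line 409, against 39.1, 47.1 and 31.0 in the control, a log2 change of -1.17, and replicate 1 of line 409 lay far below the others. Without that array the log2 change of AT1G11270 was -0.62 at limma adjusted p = 0.394. The last 5 of the 15 were AT5G19670 of the exostosin family, the dirigent-like AT1G65870, the calcium-binding EF-hand gene AT3G47480, the myosin-related AT1G64330 and the HD-domain phosphohydrolase AT5G40270. Their log2 changes were -0.78, -0.75, -0.75, -0.73 and -0.72, and their line 409 signals were all between 12.6 and 29.3. Over the 15 named lower genes the limma adjusted p-values were 0.161 to 0.479, and control replicates 1, 2 and 3 were the nearest control array for 6, 3 and 6 of them.

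**Figure D4:**
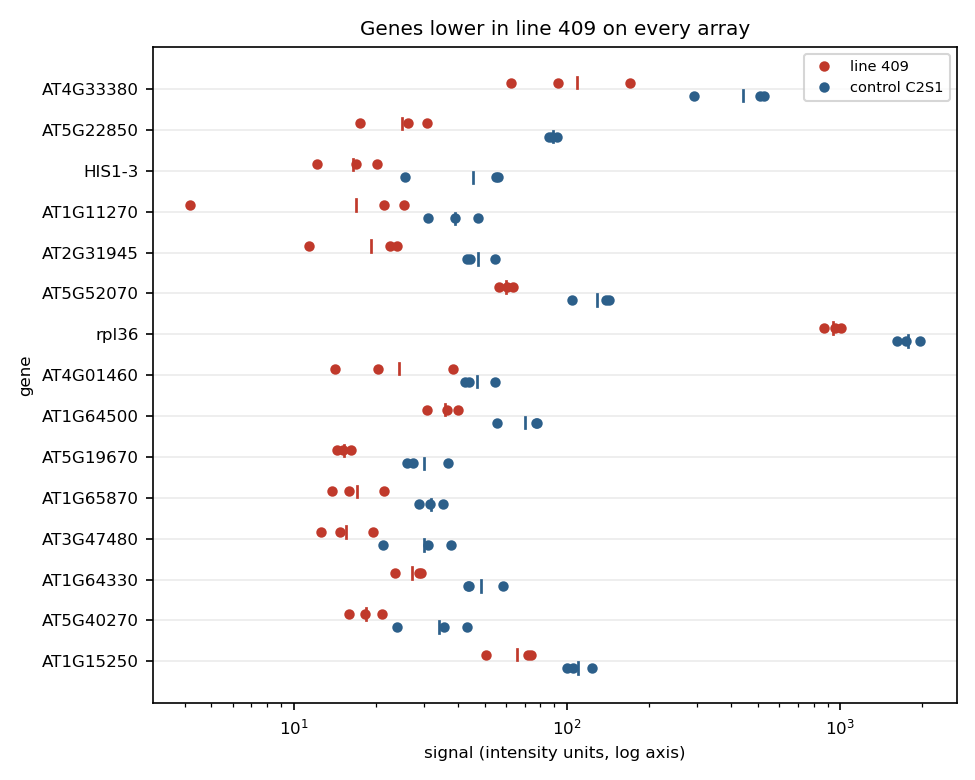
Signals of the 15 named genes that were lower on every line 409 array, one row per gene, with line 409 above the control in each row (log axis, points are arrays, ticks are means). AT5G22850 and rpl36 show a wide gap between the groups, for rpl36 between 1009 on the highest line 409 array and 1621 on the lowest control array.

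Among 7303 brighter probe sets with 1 gene, 3 were higher (0.0411%) and 6 lower (0.0822%) by at least 2-fold with no overlap. At the 2-fold limit, AT4G10270 with a log2 change of 1.04 was just inside and AT3G27220 with 0.95 just outside among brighter genes higher in line 409. Among those lower, AT5G52070 with -1.03 was just inside and rpl36 with -0.91 just outside. Brighter means here a mean log2 value over the 6 arrays above the 40th percentile of all probe sets, which is a signal of about 21.1.

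Of the 141 probe sets with no overlap and at least 2-fold, 19 were brighter, 12 higher and 7 lower, and of these 10 had no single gene in the gene table used here. The 19 are 0.139% of brighter probe sets. Leaving out 1 array moved these counts, to 38 higher and 15 lower without control replicate 3, 26 and 16 without line 409 replicate 1, and 6 and 8 without control replicate 1. Probe set 253416_at had 246, 274 and 315 in line 409, against 18.0, 46.9 and 212 in the control, a log2 change of 2.15 at limma adjusted p = 0.404. Without control replicate 3 the log2 change of 253416_at was 3.03 at limma adjusted p = 0.0542, and without control replicate 1 it was 1.41 at 0.808. Probe set 260869_at had 294, 343 and 426 in line 409, against 70.4, 93.6 and 278 in the control, a log2 change of 1.47 at limma adjusted p = 0.38. Without control replicate 3 the log2 change of 260869_at was 2.04 at limma adjusted p = 0.038, and without control replicate 1 it was 1.09 at 0.808. In both, control replicate 3 was the highest control array, as in the low-oxygen genes.

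Probe set 258618_at had 62.1, 57.2 and 70.8 in line 409, against 18.5, 27.2 and 18.7 in the control, a log2 change of 1.38 at limma adjusted p = 0.221 over all probe sets and 0.0331 without the dim ones. Probe set 251861_at had 117, 167 and 131 in line 409, against 61.9, 59.6 and 43.5 in the control, a log2 change of 1.26 at limma adjusted p = 0.191 and 0.0331 in the same fits. For these probe sets the control arrays lay close together and well below line 409.

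Probe set 245276_at, with the smallest adjusted p of all, had 115, 109.7 and 103 in line 409, against 206, 227 and 247 in the control. Its log2 change was -1.02 with SE 0.107, and limma adjusted p = 0.145 over all probe sets and 0.0155 without the dim ones. Probe set 253922_at had 334, 247 and 283 in line 409, against 586, 624 and 494 in the control, a log2 change of -0.97 at limma adjusted p = 0.191. Probe set 248270_at had 190.4, 127 and 109 in line 409, against 276, 289.8 and 226 in the control, a log2 change of -0.90 at limma adjusted p = 0.32. In all 3 the values of line 409 lay below those of the control with a gap.

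Dim probe sets made up the rest, 84 higher and 38 lower. Their signals are so low that the added 5 sets much of the log2 change, and detection calls were not used here, so a level above background was not established for them. Among 9099 dimmer probe sets, 0.923% were higher and 0.418% lower by this measure, against 0.0879% and 0.0513% of the brighter ones. The 10th percentile of the signals was 1.2 to 1.58 in line 409, against 1.05 to 1.15 in the control, and the 20th percentile was 4.98 to 6.26 in line 409, against 4.57 to 4.89 in the control. The low end of every line 409 array thus lay above that of every control array. With quantile normalization, which gives all arrays the same low end, 46 dim probe sets were higher and 64 lower. With median centring 77 were higher and 38 lower, so the direction of the split depends on which scaling is used.

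**Figure D5:**
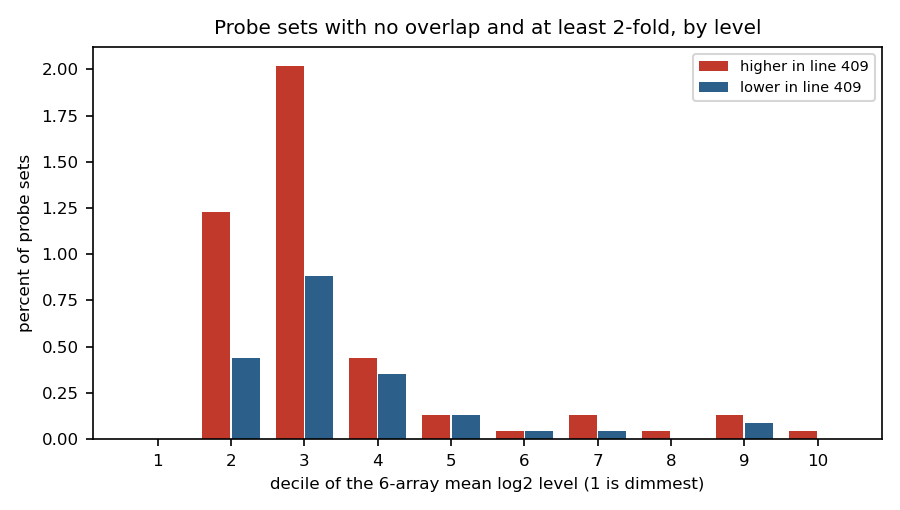
Percent of probe sets with no overlap and at least 2-fold, higher (left bar) or lower (right bar) in line 409, in each decile of the mean log2 level over the 6 arrays, with the scaling as deposited. The share peaks in the third decile, at 2.02% higher and 0.88% lower, and is at most 0.132% from the fifth decile on.

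Among dim genes with a name, AT5G59760 had 6.08, 12.3 and 21.7 in line 409, against 0.81, 1.32 and 0.55 in the control. AT1G67635 had 11.7, 11.2 and 14.8 in line 409, against 4.61, 0.32 and 0.35 in the control, and AT1G48180 had 10.2, 12.6 and 10.8 in line 409, against 1.14, 1.76 and 0.80 in the control. AT5G47260, a gene of the NBS-LRR disease resistance class, had 10.9, 16.9 and 19.8 in line 409, against 9.50, 0.40 and 1.60 in the control. Its further probe set 248837_at was below 1 on every array. The pseudogene AT2G15380 had 8.63, 6.03 and 22.5 in line 409, against 0.79, 1.08 and 2.20 in the control. All 5 thus lay at or under a signal of 22.5 in line 409 and 9.50 in the control.

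Lower in line 409 was AT4G04410, annotated as a pseudogene, with 0.45, 0.97 and 4.02 in line 409, against 22.8, 25.3 and 19.3 in the control, a log2 change of -2.04 at limma adjusted p = 0.191. The pseudogene AT5G32430 had 7.04, 6.19 and 11.6 in line 409, against 26.2, 37.8 and 32.7 in the control, a log2 change of -1.50. The transcribed pseudogene AT2G46730 had 1.01, 2.24 and 1.56 in line 409, against 15.8, 13.96 and 7.88 in the control, a log2 change of -1.38. AT2G16890, a UDP-glycosyltransferase, and AT5G06790 had log2 changes of -1.25 and -1.24.

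Annotated pseudogenes can include remnants of transposons, the usual targets of silencing. Of 989 pseudogene probe sets, 98.4% were dim, 117 (11.8%) were higher with no overlap and 38 (3.84%) lower, with a median log2 change of 0.112. All dimmer probe sets had 9.65% higher and 3.49% lower. With quantile normalization the pseudogenes had 7.58% higher and 5.66% lower, and all dimmer probe sets 5.65% and 5.52%. With median centring the pseudogenes had 12% higher and 4.04% lower, and all dimmer probe sets 9.44% and 3.6%. The 16 brighter pseudogene probe sets had 1 higher and 2 lower with no overlap, against 7.82% higher and 9.93% lower of all brighter probe sets.

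The gene lists described below had few members measured by a probe set with a single named gene, and no member passed or differed 1.5-fold with no overlap (2.33% of all probe sets were higher and 1.2% lower by that measure). The lists of DNA methylation and heterochromatin genes and of RNA-directed DNA methylation had 0 of 16 and 0 of 13 genes measured, so DDM1, MET1 and CMT3 were not analysed here, and neither was ROS1. The DNA demethylase DME, on its brightest probe set, had 91.9, 73.4 and 103 in line 409, against 84.9, 69.9 and 80.5 in the control. QQS, an orphan gene whose expression varies with DNA methylation, had 266, 210.6 and 220.1 in line 409, against 152, 199 and 168 in the control, a log2 change of 0.42 at limma adjusted p = 0.413. MPC, an imprinted gene, overlapped, with a log2 change of 0.06.

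Of the list for the S-adenosylmethionine cycle, which supplies methyl groups, 3 of 17 genes were measured. All 3 belong to methionine metabolism around the cycle. SAM1, SAM2, SAHH1 and SAHH2 of the cycle itself had no probe set with a single named gene, so methyl supply was not covered here. Of the 3, 2 were lower with no overlap, as were 7.36% of all probe sets. MGL, methionine gamma-lyase, had 63.9, 60.3 and 61.8 in line 409, against 89.6, 99.9 and 72.9 in the control, a log2 change of -0.45. CBL, cystathionine beta-lyase, had 504, 569.8 and 453.5 in line 409, against 613, 644 and 625 in the control, a log2 change of -0.30. HMT-1, a homocysteine methyltransferase, was the other measured gene, with 37.4, 33.9 and 54.8 in line 409, against 29.9, 33.6 and 35.7 in the control, which overlapped, and a log2 change of 0.28. UGT78D2, whose enzyme adds glucose to flavonoids, was lower with no overlap, as were 7.36% of all probe sets. It had 65.3, 77.7 and 72.0 in line 409, against 100.1, 107 and 106 in the control. The log2 change was -0.52 at limma adjusted p = 0.336. DFR, the other measured flavonoid gene, was dim and overlapped, and went the other way with a log2 change of 0.51. PDF1.2, a defensin induced by jasmonate, was higher with no overlap, as were 8.55% of all probe sets. It had 23.2, 30.1 and 30.9 in line 409, against 12.9, 18.7 and 20.2 in the control. The log2 change was 0.58 at limma adjusted p = 0.522. THI2.1, the other measured jasmonate gene, was dim and overlapped, with a log2 change of 0.52.

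Other measured list members that overlapped were the glucosinolate gene BCAT4 with a log2 change of 0.09 and the defence gene SAG101 with -0.01. The cold genes COR47, LTI30, COR15A and COR15B also overlapped, with 0.09, -0.22, -0.08 and -0.09. So did the clock gene GI with 0.15 and the flowering gene AGL24 with -0.08. Overlap was also seen for the dim genes AOP3 of glucosinolates, with 0.34, and BGLU28 of sulfur starvation, with -0.43. PSAE-1 of photosystem I and RCA, Rubisco activase, were higher with no overlap, with log2 changes of 0.26 and 0.15, as were 8.55% of all probe sets. The other measured leaf markers, LHCB4.1 and LHCB4.2, overlapped, with log2 changes of 0.09 and -0.03. Lists of heat shock, phosphate, iron and nitrate genes had no member with a probe set of a single named gene, so they were not analysed.

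Gene families were read by words in the gene table, where most genes carry only clone names. They are therefore partial, and a clone name can match a family word by accident. Of 43 UDP-glycosyltransferase probe sets, 3 were higher and 3 lower with no overlap, and of 24 cytochrome P450 probe sets, 3 higher and 1 lower. Of 19 expansin probe sets, 2 were higher and none lower. These shares are set beside 8.55% higher and 7.36% lower for all probe sets. The expansin gene EXPB2, of cell wall loosening, had 23.5, 16.2 and 20.8 in line 409, against 2.08, 10.4 and 14.4 in the control, a log2 change of 0.96 at limma adjusted p = 0.502.

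Genes with no overlap and at least 1.5-fold were spread over the genome. Over all probe sets with 1 gene they were 2.63% higher and 1.22% lower. They made up 2.55% to 2.73% of the probe sets with 1 gene on each of the 5 nuclear chromosomes in the higher direction and 1.06% to 1.56% in the lower. Of 517 such genes, 8 pairs were direct neighbours in the RefSeq annotation, 6 of them in the same direction. How many such pairs genes picked at random would give was not computed, so the count does not show clustering. One pair was AT3G27220 and AT3G27210, higher in line 409, and another was LDL2 and AT3G13680, also higher.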

How the data were processed

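Total RNA of whole plants had been labelled with biotin, 1 sample per array. The deposited values are signal intensities on a linear scale, and the authors obtained them with the MAS5 algorithm (GCOS software), as the submitters' processing notes list them, without versions. The scaling of the deposited values was kept; how it was done is not described in the labels. Arrays were grouped by line, and 64 Affymetrix control probe sets were left out. Genes came from the given probe table joined to RefSeq by gene identifier: 13513 probe sets had 1 gene, 13436 of them in RefSeq, 503 several and 8730 none named.

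Line 409 was tested against the control in R 4.3.3 with limma 3.58.1 on log2(signal + 5), with an intensity trend, 4 residual degrees of freedom and Benjamini-Hochberg adjustment over 22746 probe sets. The median SE was 0.211. The text names, for 1 gene, the 15 largest changes per direction with no overlap among brighter probe sets, 5 among dimmer ones, up to 3 members per list past 1.5-fold, and up to 3 probe sets without a single gene. Members, lists and families were chosen with earlier results of these data known. The code was tested on simulated data. No sequence tables were used here.

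Alternatives were other pseudocounts, a dim filter, quantile and median scaling, no trend, robust fitting, array weights, a replicate block, each array left out, a 1.5-fold limit, and 2 subsets of probe sets.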

Additional observations from a re-analysis of the deposited data

How the results depend on the processing

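Limma called 0 probe sets over all 22746, and also with pseudocounts of 1 and 20, quantile normalization, median centring, no intensity trend, robust fitting, array weights and only probe sets with 1 gene, where 1236 to 2562 had an unadjusted p under 0.05. It called 8 with the dim filter and also 8 with only brighter probe sets; this subset and that of probe sets with 1 gene were chosen after seeing the data. With 1 array left out it called 0 to 3, the 3 without control C2S1 replicate 3. Of probe sets with no overlap and at least 2-fold there were 141, against 664 with a pseudocount of 1, 9 with 20, 23 with the dim filter, 19 among brighter probe sets and 803 at 1.5-fold. With 1 array left out there were 226 to 368, since fewer arrays overlap less often. Quantile normalization and median centring gave 128 and 132. Of 804 alternative values for the named genes and probe sets, none changed direction. All had been chosen for having no overlap, so only quantile normalization and median centring could have changed a direction. Of the 804, 19 passed the threshold, 8 with the dim filter, 8 with only brighter probe sets and 3 without control C2S1 replicate 3. The cause was not tested. Same-numbered arrays had deviations correlated at 0.089, 0.01 and 0.047, so the numbers were not taken to pair the samples; with the replicate block limma called 0, with 2248 at an unadjusted p under 0.05. The median 95% interval of a log2 change reached 0.478 to either side.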
